A study of Mus musculus with 2 samples.

Results

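Collagen chains, the polypeptides that wind around each other into collagen, were examined in newborn mouse adrenal glands. The 44 members were the genes named Col, a type number, a and a chain number that have at least 1 protein-coding transcript, out of 55536 annotated genes and 22028 protein-coding genes. By textbook class, 11 were fibrillar chains, 6 were type IV chains of basement membrane, and 27 were other chains. The others comprised 8 beaded-filament chains (types VI, XXVI and XXVIII), 9 fibril-associated chains with interrupted helices (FACIT), 3 short-chain network chains, 1 anchoring-fibril chain, 4 transmembrane chains and 2 multiplexins. Total RNA had been sequenced from glands of B6CASTF1/J males aged 4 days, a first-generation hybrid of C57BL/6J and CAST/EiJ; the labels name no treatment and no engineered allele. There were 2 biological replicates and no other group. The sample characteristics number them as different males, but both carry 1 donor label, so the spread between them may be partly technical. A whole gland, in bulk, holds cortex, medulla, capsule, vessels and nerve, and any attached tissue.

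Collagens are the main fibrous proteins of connective tissue. Fibrillar chains assemble into the fibrils of capsule and stroma, type IV chains form the sheet-like network under endothelium and around parenchymal cells, and FACIT chains sit on fibrils. Each chain carries a repeat in which each 3rd residue is glycine, the residue that is small enough to fit inside the helix. In the gland, capsule and stromal fibroblasts and vessels are the usual makers of collagen.

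The glycine repeat is shown in the coding sequences of the chains with the highest levels of the fibrillar and type IV classes, because it is what all 44 share. Each stretch below is from GENCODE M21 and runs 5′ to 3′. Capitals mark glycine codons (GGN) at each 3rd codon position. In the first 3 lines, the first 24 codons of the longest run, the repeat is unbroken. In the last 2 it is interrupted.
Col1a1, codons 168 to 191: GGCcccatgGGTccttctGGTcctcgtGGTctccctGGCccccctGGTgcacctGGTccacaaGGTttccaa
Col1a2, codons 97 to 120: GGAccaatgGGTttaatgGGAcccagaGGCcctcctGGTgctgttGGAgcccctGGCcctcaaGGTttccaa
Col3a1, codons 164 to 187: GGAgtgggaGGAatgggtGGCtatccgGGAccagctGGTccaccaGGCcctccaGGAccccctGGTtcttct
Col4a1, codons 151 to 184: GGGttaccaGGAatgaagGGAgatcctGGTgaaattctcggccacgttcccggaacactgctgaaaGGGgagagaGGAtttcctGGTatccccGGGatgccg
Col4a2, codons 223 to 248: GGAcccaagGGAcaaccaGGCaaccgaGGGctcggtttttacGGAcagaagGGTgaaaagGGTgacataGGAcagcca

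Col1a1, Col1a2 and Col3a1 each had 1 main run, of 338, 339 and 344 triplets of codons. Over the 11 fibrillar chains the longest run had a median of 338 triplets. Col24a1 and Col27a1 were the exceptions, with longest runs of 216 and 217 triplets. In the 6 type IV chains the repeat was broken into 23 to 27 runs of at least 3 triplets, and the longest run had a median of 43.5 triplets. The break printed for Col4a1 was 10 codons long and that for Col4a2 was 2 codons long. Each is the first break that shifts the phase of the repeat and meets set limits on its length and flanking runs. Earlier breaks of other kinds may precede it. The type IV chains nevertheless had a median of 76.7% of their codons in such runs, against 62.0% in the fibrillar chains. Among the other chains the longest run ranged from 23 triplets in Col26a1 to 113 triplets in the type IX chains Col9a1, Col9a2 and Col9a3 and in Col22a1. The beaded-filament chains had a median of 18.7% of codons in runs and the multiplexins 28.5%, the lowest medians of the subclasses.

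**Figure D1:**
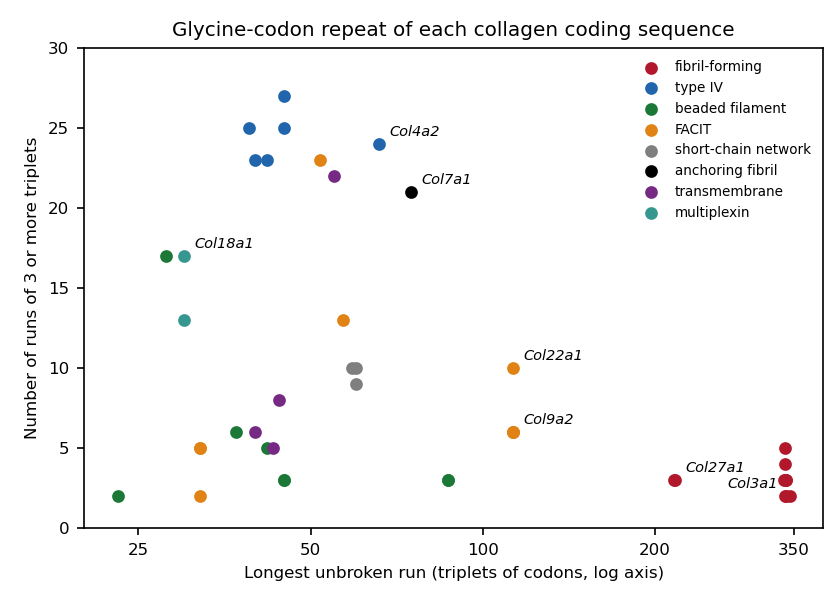
Each point is 1 collagen coding sequence, placed by its longest unbroken run of triplets that begin with a glycine codon (x axis, log scale) and by its number of runs of 3 or more triplets (y axis); colours give the subclass. The fibril-forming chains lie at the right with 216 to 344 triplets and the type IV chains at the top with 23 to 27 runs. Col16a1, a FACIT chain, also has 23 runs, and Col17a1 and Col7a1 have 22 and 21.

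The gene tables held 30292851 expected counts in replicate 2 and 32231301 in replicate 1. Markers of liver set the libraries apart: the 10 liver genes summed to 6095 TPM (length-scaled transcript abundance) in replicate 2 and 233 TPM in replicate 1. The 8 skeletal muscle genes summed to 1207 TPM in replicate 2 against 655 in replicate 1. The defining genes of the gland were high in both libraries, with sums of 7095 TPM in replicate 2 and 9107 in replicate 1 for 10 cortex genes such as Star and Cyp11a1, and of 1968 TPM in replicate 2 against 2174 in replicate 1 for 8 medulla genes such as Th and Pnmt. Levels below are therefore given for each library. In bulk RNA, fewer cells of a type and less RNA per cell cannot be told apart.

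Collagen mRNAs took 1.02% of gene counts in replicate 2 (95% Wilson interval 1.016% to 1.023%) and 0.811% in replicate 1 (0.808% to 0.814%). These intervals cover counting error only. Collagen TPM summed to 2019 in replicate 2 and 1528 in replicate 1, or 0.205% and 0.155% of all gene TPM. TPM weighs short RNAs heavily in these total RNA tables, and among protein-coding genes alone the share averaged 0.466% of TPM. At a mean of at least 1 TPM, 35 of the 44 genes were detected, and 17 reached 10 TPM. The median collagen had 4.82 TPM. Every member had counts: the lowest, Col19a1, a FACIT chain, had 14 counts in replicate 2 and 6 in replicate 1.

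A few chains carried most of the collagen mRNA. The 3 highest genes made up 53.0% of collagen TPM in replicate 2 and 47.8% in replicate 1, and the 10 highest made up 86.9% in replicate 2 and 87.1% in replicate 1. Fibrillar chains took 61.6% of collagen TPM in replicate 2 and 57.9% in replicate 1 (mean 59.8% ± 2.65, SD, n = 2). Type IV chains took 16.3% in replicate 2 and 19.0% in replicate 1, beaded-filament chains 12.6% in replicate 2 and 14.0% in replicate 1, FACIT chains 4.90% in replicate 2 and 4.77% in replicate 1, and multiplexins 3.16% in replicate 2 and 2.59% in replicate 1. Transmembrane chains took 1.01% in replicate 2 and 1.36% in replicate 1. Short-chain network and anchoring-fibril chains were each at or under 0.270% of collagen TPM in each library. The order fibril-forming, type IV, beaded filament, FACIT and multiplexin was the same in both libraries.

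**Figure D2:**
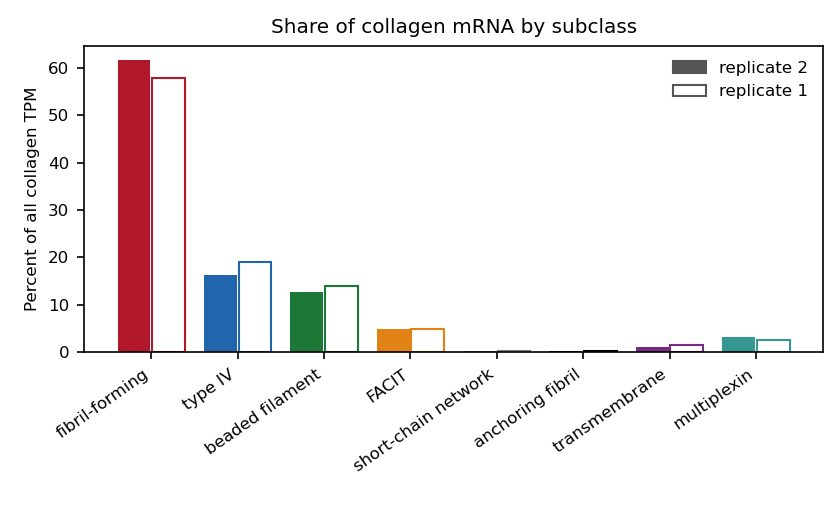
Bars give the percent of all collagen TPM (y axis, from 0) taken by each subclass of chains, filled for replicate 2 and open for replicate 1. Fibril-forming chains stand highest at 61.6% in replicate 2 and 57.9% in replicate 1, followed by type IV at 16.3% in replicate 2 and 19.0% in replicate 1.

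Among the fibrillar chains, types III and I were far above the rest. Col3a1 (ENSMUSG00000026043.18, mm10 chromosome 1, 45311538 to 45349706), the chain of the homotrimeric type III collagen of soft tissue, had 393 TPM in replicate 2 and 295 in replicate 1. It was the highest collagen and ranked 116th among protein-coding genes by mean TPM. Col1a1 (ENSMUSG00000001506.10, chromosome 11, 94936224 to 94953042), which supplies 2 of the 3 chains of type I collagen, had 388 TPM in replicate 2 against 238 in replicate 1. Col1a2 (ENSMUSG00000029661.16, chromosome 6, 4504814 to 4541544), which supplies the remaining chain, had 289.95 TPM in replicate 2 and 199 in replicate 1. All of these were higher in replicate 2.

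The log2 ratio of Col1a1 over Col1a2 TPM was 0.42 in replicate 2 and 0.26 in replicate 1 (mean 0.34 ± 0.12). On this scale a 2-to-1 ratio is 1. From expected counts without length scaling it averaged 0.52, and in the alignment-free transcript quantification 0.04. The order of Col3a1 and Col1a1 rests on the scale: the log2 TPM ratio of Col3a1 over Col1a1 was 0.02 in replicate 2 and 0.31 in replicate 1, but averaged -0.26 on expected counts. Their means therefore do not differ beyond their spread (343.6 ± 69.3 and 313 ± 106 TPM).

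The minor fibrillar chains of type V, which co-assemble with type I and help set fibril diameter, formed a middle tier. Col5a3 (chromosome 9, 20770050 to 20815067) had 82.7 TPM in replicate 2 against 85.3 in replicate 1. Col5a1 had 49.7 TPM in replicate 2 and 40.4 in replicate 1, and Col5a2 had 27.2 TPM in replicate 2 against 20.2 in replicate 1. Type V is commonly found as a trimer with more alpha 1 than alpha 2 chains, and the Col5a1 over Col5a2 log2 TPM ratio was 0.87 in replicate 2 and 1.00 in replicate 1. Col5a3 was the highest type V chain in both libraries, and the order of the 3 was the same in each. Col27a1, a chain known from cartilage, had 6.10 TPM in replicate 2 and 5.34 in replicate 1.

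The remaining fibrillar chains, types II, XI and XXIV, were near or under 1 TPM in replicate 1. Col11a1, known as the partner of type II collagen in cartilage fibrils, had 3.28 TPM in replicate 2 against 0.640 in replicate 1, from 604 counts in replicate 2 and 142 in replicate 1. Col11a2 had 2.27 TPM in replicate 2 and 0.790 in replicate 1. Col2a1, the chain of the main cartilage collagen, had 1.33 TPM in replicate 2 against 0.390 in replicate 1, and Col24a1 had 0.690 TPM in replicate 2 and 0.150 in replicate 1. Col11a1, Col11a2, Col2a1, Col22a1 and Col28a1 reached 1 TPM in replicate 2 only, and Col8a1 in replicate 1 only. Replicate 2 alone detected 35 collagens at 1 TPM and replicate 1 alone 31.

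**Figure D3:**
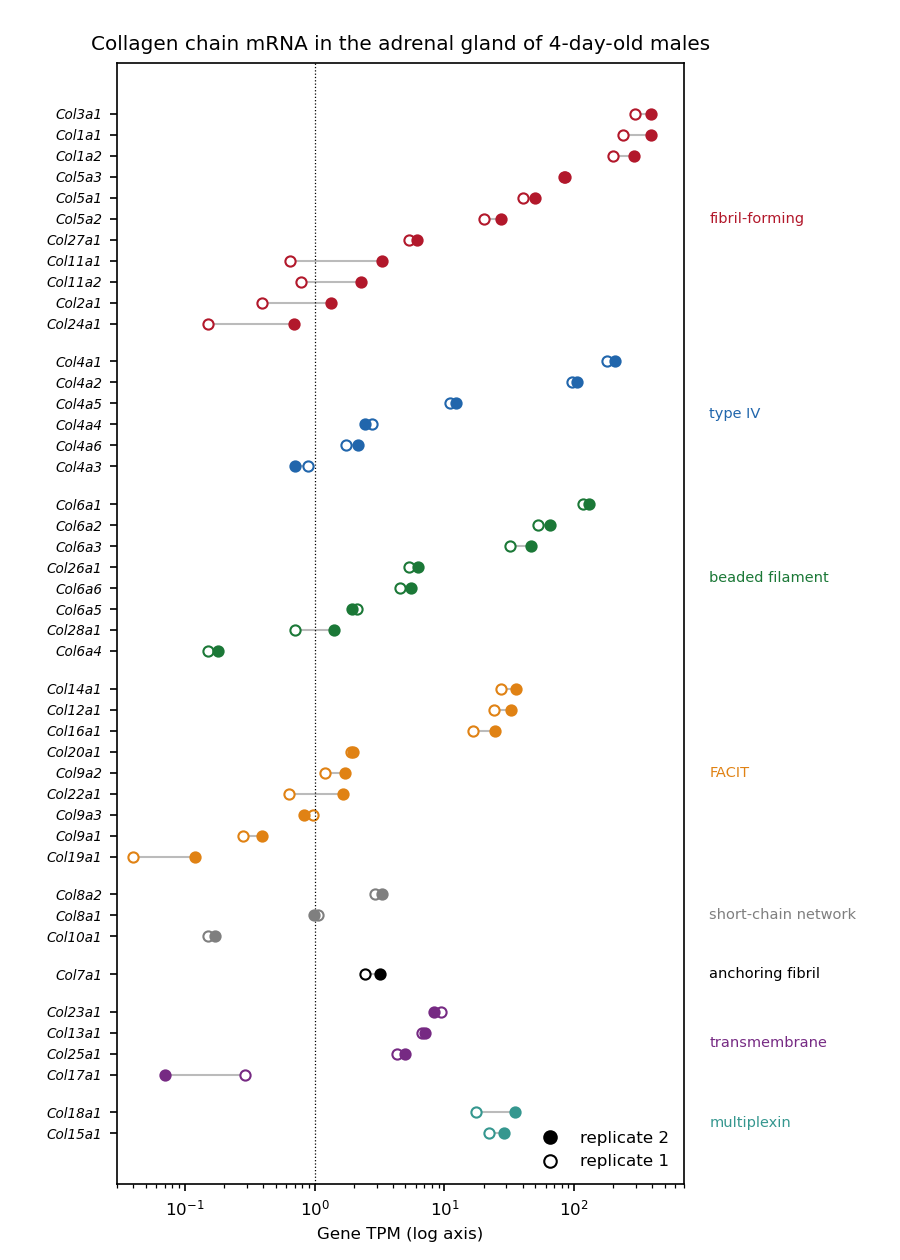
Gene TPM (x axis, log scale) of all 44 collagen genes, ordered by level within each subclass; filled points are replicate 2, open points replicate 1, and the dotted line marks 1 TPM. Col3a1, Col1a1 and Col1a2 lead at 199 to 393 TPM, and Col11a1, Col11a2, Col2a1 and Col24a1 show wide gaps between the libraries.

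The type IV genes lie in head-to-head pairs, and the partners of each pair had unequal levels. Col4a1 (ENSMUSG00000031502.11, chromosome 8, 11198423 to 11312826, minus strand) had 206 TPM in replicate 2 against 178 in replicate 1. Its partner Col4a2 (ENSMUSG00000031503.13, chromosome 8, 11312805 to 11449287, plus strand) had 106 TPM in replicate 2 and 95.8 in replicate 1. These are the chains of the basement membrane found in most tissues, in which alpha 1 outnumbers alpha 2 in each trimer. The log2 TPM ratio of Col4a1 over Col4a2 was 0.96 in replicate 2 and 0.89 in replicate 1 (mean 0.93 ± 0.04). It averaged 0.64 on expected counts and 1.56 in the alignment-free tables, so its size rests on the kind of table.

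Col4a5 had 12.3 TPM in replicate 2 against 11.1 in replicate 1, and its partner Col4a6 had 2.15 TPM in replicate 2 and 1.75 in replicate 1. Their log2 TPM ratio was 2.52 in replicate 2 and 2.66 in replicate 1. Col4a4 had 2.45 TPM in replicate 2 against 2.77 in replicate 1, and its partner Col4a3 had 0.710 TPM in replicate 2 and 0.890 in replicate 1. These are chains best known from the basement membrane of the kidney glomerulus. Col4a3 over Col4a4 had a log2 TPM ratio of -1.79 in replicate 2 and -1.64 in replicate 1.

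The sequence at each shared start is printed because the paired genes are read away from it in opposite directions. All are plus-strand sequence, from RefSeq's promoter table for the mm10 assembly (GRCm38), with start and end counted from 1. The first is the whole gap of 71 bases between the annotated starts of Col4a4 and Col4a3, at chr1:82586850-82586920. The second is the 22 bases where the annotated first exons of Col4a1 and Col4a2 overlap, at chr8:11312805-11312826. The third is the last 100 bases before Col4a5, at chrX:141475285-141475384, within a gap of 1308 bases to the start of Col4a6. Capitals mark a GGGCGG motif (GC box).
Col4a4 and Col4a3: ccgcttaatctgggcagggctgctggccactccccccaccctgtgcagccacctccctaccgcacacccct
Col4a1 and Col4a2: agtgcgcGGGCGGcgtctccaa
Col4a6 and Col4a5: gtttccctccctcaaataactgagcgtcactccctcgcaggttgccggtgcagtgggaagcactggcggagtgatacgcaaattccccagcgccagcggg

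The 3 stretches were 69.0%, 72.7% and 61.0% G or C. Both strands were searched for the GC box named above, for the CCAAT box and for the TATA box (the letters TATAAA), and the single match found overlapped no other. The Col4a1 and Col4a2 stretch held 1 GC box. Of 32851 promoter windows of 22 bases, which lie before annotated starts, 7.19% held this motif. The Col4a1 and Col4a2 stretch lies within both first exons, after the starts. That percentage is therefore not a matched background and cannot say whether the motif is unusual there. The other stretches held none of these motifs in this window, where the GC box was found in 20.7% and 24.7% of windows of 71 and 100 bases. Of all promoter windows, 13.3% held CCAAT in 71 bases and 18.9% in 100 bases, and 4.41% held TATAAA in 71 bases and 5.56% in 100 bases.

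Other collagen neighbours lie less than 1 Mb apart without a shared start. Col3a1 and Col5a2 end toward each other 24614 bases apart on chromosome 1, and mean Col3a1 TPM was 14.5-fold that of Col5a2. Col6a2 and Col6a1 lie 85161 bases apart on chromosome 10, with Col18a1 a further 326009 bases on. Col6a6, Col6a5 and Col6a4 follow one another on the minus strand of chromosome 9 with gaps of 27917 and 28810 bases, at 5.49, 1.94 and 0.180 TPM in replicate 2 and 4.54, 2.11 and 0.150 TPM in replicate 1. Col9a1 lies 9205 bases from Col19a1, both under 0.5 TPM. Col9a3 lies 364345 bases from Col20a1, at 0.830 and 1.99 TPM in replicate 2 and 0.970 and 1.89 TPM in replicate 1.

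Beaded-filament chains of type VI, which link cells to the surrounding matrix, were led by the classical trio. Col6a1 (chromosome 10, 76708792 to 76726168) had 129 TPM in replicate 2 against 116 in replicate 1. Col6a2 had 64.5 TPM in replicate 2 and 52.4 in replicate 1, and Col6a3, the chain with the large amino-terminal extension, had 46.5 TPM in replicate 2 against 31.8 in replicate 1. The order was the same in both libraries, and the log2 TPM ratio of Col6a1 over Col6a2 was 1.00 in replicate 2 and 1.15 in replicate 1. Col26a1 had 6.20 TPM in replicate 2 and 5.37 in replicate 1, and Col28a1 had 1.40 TPM in replicate 2 against 0.700 in replicate 1.

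Fibril-associated chains were led by types XIV, XII and XVI. Col14a1 had 35.2 TPM in replicate 2 and 27.2 in replicate 1, and Col12a1 had 32.5 TPM in replicate 2 against 24.1 in replicate 1. Both bind the surface of type I fibrils. Col16a1 had 24.5 TPM in replicate 2 and 16.6 in replicate 1. Col22a1, a chain known from tissue junctions such as that of muscle and tendon, had 1.66 TPM in replicate 2 against 0.630 in replicate 1. The type IX chains, which decorate cartilage fibrils, were low: Col9a2 was the highest, at 1.70 TPM in replicate 2 and 1.21 in replicate 1.

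The multiplexins, heparan or chondroitin sulfate proteoglycans of basement membrane zones, were close to each other. Col18a1 (chromosome 10, 77052178 to 77166548), the source of the fragment endostatin, had 35.2 TPM in replicate 2 against 17.6 in replicate 1. Col15a1 (chromosome 4, 47208161 to 47313167) had 28.5 TPM in replicate 2 and 22.03 in replicate 1. Their order differed between the libraries. Of the transmembrane chains, Col23a1 had 8.27 TPM in replicate 2 against 9.32 in replicate 1, Col13a1 had 7.02 TPM in replicate 2 and 6.77 in replicate 1, and Col25a1 had 4.93 TPM in replicate 2 against 4.34 in replicate 1. Col17a1, a hemidesmosome protein of epithelia, had 12 counts in replicate 2 and 16 in replicate 1. Col7a1, the anchoring-fibril chain of skin, had 3.19 TPM in replicate 2 and 2.46 in replicate 1. Of the short-chain network collagens, Col8a2 had 3.28 TPM in replicate 2 against 2.90 in replicate 1, Col8a1 had 0.990 TPM in replicate 2 and 1.07 in replicate 1, and Col10a1, the chain of hypertrophic cartilage, had 15 counts in each library.

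The libraries were then compared gene by gene with an exact two-sided binomial test of counts against TMM library sizes, adjusted by Benjamini-Hochberg over 18160 genes. This test compares 2 libraries with counting error only, so it says which genes differ more than counting allows and nothing about a condition. The log2 ratio is replicate 2 over replicate 1. TPM ran higher in replicate 2 by a median of 0.10 on the log2 scale over all tested genes, where scaled counts had a median of 0.00, so a small difference in TPM can have the opposite sign to the tested ratio. Of the 43 collagens tested (all but Col19a1), 22 passed an adjusted p of 0.05 as higher in replicate 2 and 4 as higher in replicate 1, which is 51.2% and 9.30%. Among all tested genes 15.9% passed as higher in replicate 2 and 17.6% as higher in replicate 1. In either direction that is 26 of 43, against 33.5% of all tested genes. With the further demand of over 2-fold, 5 collagens (11.6%) were called higher in replicate 2 and 0 higher in replicate 1, against 3.39% and 0.606% of all tested genes, or 3.99% in either direction. The median log2 ratio was 0.19 over the collagens and 0.00 over all tested genes. Summed over all 44 genes, scaled collagen counts were 1.23-fold higher in replicate 2.

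By class, the fibrillar chains had a median log2 ratio of 0.47, with 9 of 11 past the adjusted p as higher in replicate 2 and 1, Col5a3, as higher in replicate 1. The type IV chains had a median of 0.06, with 2 past the adjusted p in each direction. The other chains had a median of 0.14 over 26 tested, with 11 higher in replicate 2 and 1, Col23a1, higher in replicate 1. Among the 17 collagens at 10 TPM or more, where counting error is small, 15 were higher in replicate 2 past the adjusted p and 1 was higher in replicate 1, and their median log2 ratio was 0.29. The 7720 tested genes at that level had a median of -0.04, with 15.5% past the adjusted p as higher in replicate 2 and 29.3% as higher in replicate 1. The 26 tested collagens under 10 TPM had a median of 0.07, against 0.06 for the 10440 tested genes under 10 TPM. They held all 5 collagens called higher in replicate 2 (19.2%), against 5.05% of those genes. For calls higher in replicate 1 the shares were 0% and 0.891%.

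The collagens called were Col11a1, Col11a2, Col2a1, Col24a1 and Col22a1. Col11a1 had a log2 ratio of 2.14 (95% exact interval for counting error 1.88 to 2.42, adjusted binomial p = 6.01e-71). Col11a2 had 286 counts in replicate 2 and 87 in replicate 1, a log2 ratio of 1.77 (1.43 to 2.14, adjusted binomial p = 3.86e-26). Col2a1 had 192 counts in replicate 2 and 63 in replicate 1, a log2 ratio of 1.66 (1.25 to 2.10, adjusted binomial p = 3.80e-16). Of these 5, 4 are thus fibrillar chains of low level. Col24a1 had 79 counts in replicate 2 and 26 in replicate 1, a log2 ratio of 1.64 (adjusted binomial p = 7.30e-07). In the alignment-free quantification its TPM was alike in the libraries, at 0.632 in replicate 2 and 0.631 in replicate 1, while its count ratio there was 1.38 on the log2 scale. Col22a1 had 352 counts in replicate 2 and 183 in replicate 1, a log2 ratio of 1.00 (0.74 to 1.27, adjusted binomial p = 1.27e-13), and fell just under 2-fold, at 0.99, with a prior count of 2.

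The abundant chains differed by less. Col1a1 had a log2 ratio of 0.61, Col1a2 of 0.47 and Col3a1 of 0.27, while Col4a1, Col6a1 and Col4a2 had 0.09, 0.06 and 0.05. Col18a1 was the widest of the collagens above 10 TPM, with 5153 counts in replicate 2 and 2853 in replicate 1 and a log2 ratio of 0.91. Col5a3 had 14368 counts in replicate 2 and 16513 in replicate 1, a log2 ratio of -0.14, and Col23a1 had -0.32. Col4a4 and Col4a3 had -0.30 and -0.40. Col4a5, at 0.08 (-0.01 to 0.16), was the only collagen above 10 TPM that did not pass the adjusted p (0.160).

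**Figure D4:**
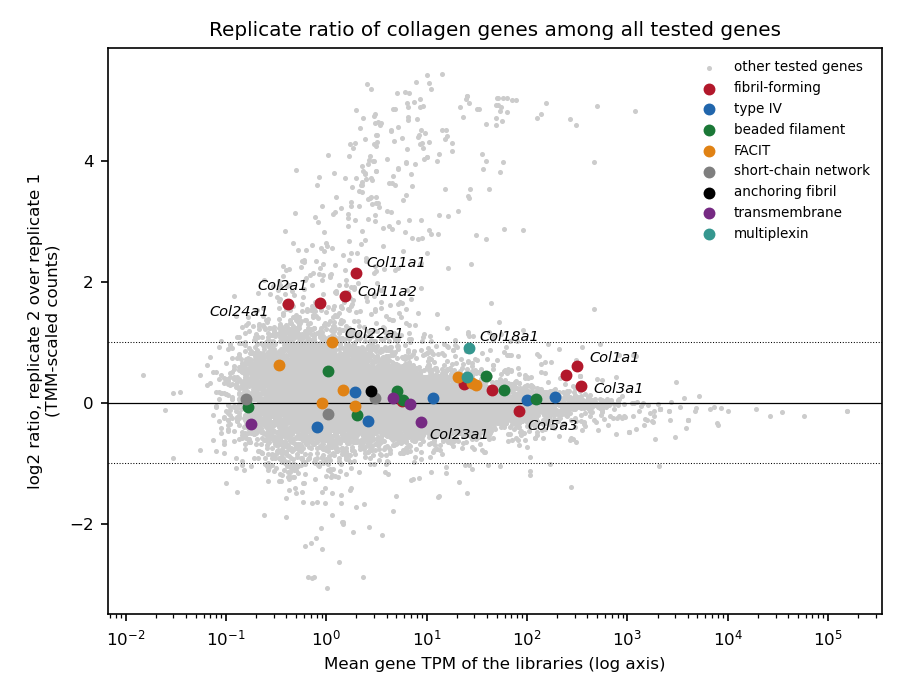
The log2 ratio of replicate 2 over replicate 1 (y axis, TMM-scaled counts) against mean gene TPM (x axis, log scale) for the tested genes; grey points are other genes, coloured points collagens by subclass, and dotted lines mark 2-fold. Col11a1, Col11a2, Col2a1, Col24a1 and Col22a1 lie above the upper dotted line, and no collagen lies below the lower one.

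Markers of other tissues were compared in the same way. As background, 15.9% of all tested genes passed the adjusted p as higher in replicate 2 and 17.6% as higher in replicate 1. Those called were 3.39% and 0.606%. All 10 liver genes, from Alb at 2319 TPM in replicate 2 against 76.3 in replicate 1 to Fgb at 51.1 TPM in replicate 2 and 1.53 in replicate 1, were called higher in replicate 2; the median log2 ratio was 4.77. All 8 skeletal muscle genes passed the adjusted p as higher in replicate 2, with a median of 0.79. Acta1 had 390 TPM in replicate 2 against 222 in replicate 1, and the embryonic myosin Myh3, the muscle gene called, had 10.2 TPM in replicate 2 and 2.63 in replicate 1. The 3 tendon genes had a median of 0.17, with 1 past the adjusted p in each direction. Tnmd was called higher in replicate 2, with 245 counts in replicate 2 and 34 in replicate 1. Mkx was higher in replicate 1, with 158 counts in replicate 2 and 214 in replicate 1 (log2 ratio -0.38, adjusted binomial p = 0.0426). Scx, with 362 counts in replicate 2 and 336 in replicate 1, did not pass.

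The cartilage and bone genes (no collagens) summed to 10.4 TPM in replicate 2 and 10.2 in replicate 1, and 5 of 11 were tested (median log2 ratio 0.05). Acan, the aggrecan core protein of cartilage, was called, with 95 counts in replicate 2 and 24 in replicate 1. Runx2, a regulator of bone formation, passed as higher in replicate 1, with 315 counts in replicate 2 and 455 in replicate 1 and a log2 ratio of -0.47. Alpl, a phosphatase of bone, passed as higher in replicate 2, with 241 counts in replicate 2 and 182 in replicate 1. Hapln1 and Bglap did not pass, at log2 ratios of 0.05 and -0.68. Of the untested members, Ibsp had 33 counts in replicate 2 and 4 in replicate 1 and Comp had 22 in replicate 2 and 9 in replicate 1, and Matn1 had 0 counts in both. Without the filter on low counts the median of this list was 1.47. The 10 kidney genes summed to 4.27 TPM in replicate 2 against 8.64 in replicate 1. Of the 6 tested, 5 were called higher in replicate 1, among them Lrp2 and Slc34a1. All were low, the highest being Slc34a1 at a mean of 2.38 TPM. The part of any of these tissues in the collagen ratios was not tested.

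Lists for the usual makers of collagen had medians near 0. The 15 fibroblast and capsule genes (no collagens) summed to 248 TPM in replicate 2 and 229 in replicate 1, and their median log2 ratio was -0.04; 4 passed the adjusted p as higher in replicate 2, 6 as higher in replicate 1 and 0 were called. Nr2f2, Fbn1 and Fbln1 were the highest. The 12 endothelial genes summed to 387 TPM in replicate 2 against 346 in replicate 1, with a median of 0.05, 5 past the adjusted p as higher in replicate 2 and 1 as higher in replicate 1, and were led by Egfl7, Plvap and Cdh5. Of 8 Schwann and sustentacular genes, with a median of 0.35, 4 were higher in replicate 2 past the adjusted p. The 8 adipocyte genes summed to 843 TPM in replicate 2 and 692 in replicate 1. Their median was 0.09, with 4 past the adjusted p as higher in replicate 2 and 2 as higher in replicate 1. Fabp4, the highest, had 407 TPM in replicate 2 and 349 in replicate 1. Lep, the lowest at a mean of 1.18 TPM, was called higher in replicate 1, with 45 counts in replicate 2 and 101 in replicate 1. All 10 cortex genes passed the adjusted p as higher in replicate 1, as did 7 of 8 medulla genes, with medians of -0.24 each. The part of these cells in the collagen ratios was not tested either.

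The genes that make and handle collagen showed medians closer to 0 than the fibrillar chains. Of 19 folding and modification genes, 2 (10.5%) passed the adjusted p as higher in replicate 2 and 5 (26.3%) as higher in replicate 1. Over all tested genes these shares were 15.9% and 17.6%. The median log2 ratio of the list was -0.03. P4hb, a subunit of prolyl hydroxylase, had 191 TPM in replicate 2 against 177 in replicate 1. Serpinh1, the collagen chaperone HSP47, had 130 TPM in replicate 2 and 133 in replicate 1, and Plod2, a lysyl hydroxylase, had 59.1 TPM in replicate 2 against 64.4 in replicate 1. Ppib, a prolyl isomerase, had 159 TPM in replicate 2 and 150.2 in replicate 1. The 12 tested secretion and propeptide-processing genes had a median of -0.05, with 3 past the adjusted p in each direction. Among them Pcolce, an enhancer of procollagen cleavage, had 211 TPM in replicate 2 against 224 in replicate 1.

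The 6 cross-linking genes had a median of 0.03, with 2 higher in replicate 2; Pxdn, which cross-links type IV collagen, had 40.8 TPM in replicate 2 and 38.1 in replicate 1, and Loxl2 had 30.8 TPM in replicate 2 against 26.6 in replicate 1. The 9 tested receptors had a median of -0.03, with 2 past the adjusted p as higher in replicate 1. Over all tested genes, 15.9% passed as higher in replicate 2 and 17.6% as higher in replicate 1, and 3.39% were called higher in replicate 2. Itgb1, the shared integrin subunit, had 118 TPM in replicate 2 and 110 in replicate 1, and Ddr1 had 19.8 TPM in replicate 2 against 21.1 in replicate 1. The 10 tested breakdown genes and inhibitors had a median of 0.01, with 3 higher in replicate 2 and 1 in replicate 1, and Mmp9 was called, with 2.03 TPM in replicate 2 and 0.640 in replicate 1. Timp3, the gene higher in replicate 1, had 14557 counts in replicate 2 and 15837 in replicate 1, a log2 ratio of -0.06, though its TPM was 112 in replicate 2 and 108 in replicate 1. Mmp14 had 76.4 TPM in replicate 2 and 70.9 in replicate 1.

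Fibril-associated proteoglycans and glycoproteins had the highest median of the 6 pathway lists, 0.24. Of 12 tested members, 8 (66.7%) passed the adjusted p as higher in replicate 2 and 1 (8.33%), Sparc, as higher in replicate 1. Over all tested genes these shares were 15.9% and 17.6%, and 3.39% were called higher in replicate 2. Fn1, fibronectin, was called at a log2 ratio of 1.21, with 129 TPM in replicate 2 against 52.9 in replicate 1. Liver also makes plasma fibronectin, and the liver genes had a median log2 ratio of 4.77. Their part in the Fn1 ratio was not tested. Postn, periostin, had 164 TPM in replicate 2 and 112 in replicate 1, and Dcn, decorin, had 111 TPM in replicate 2 against 94.3 in replicate 1. Sparc, which binds collagen, had 877 TPM in replicate 2 and 955 in replicate 1, more than any single collagen gene in either library.

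**Figure D5:**
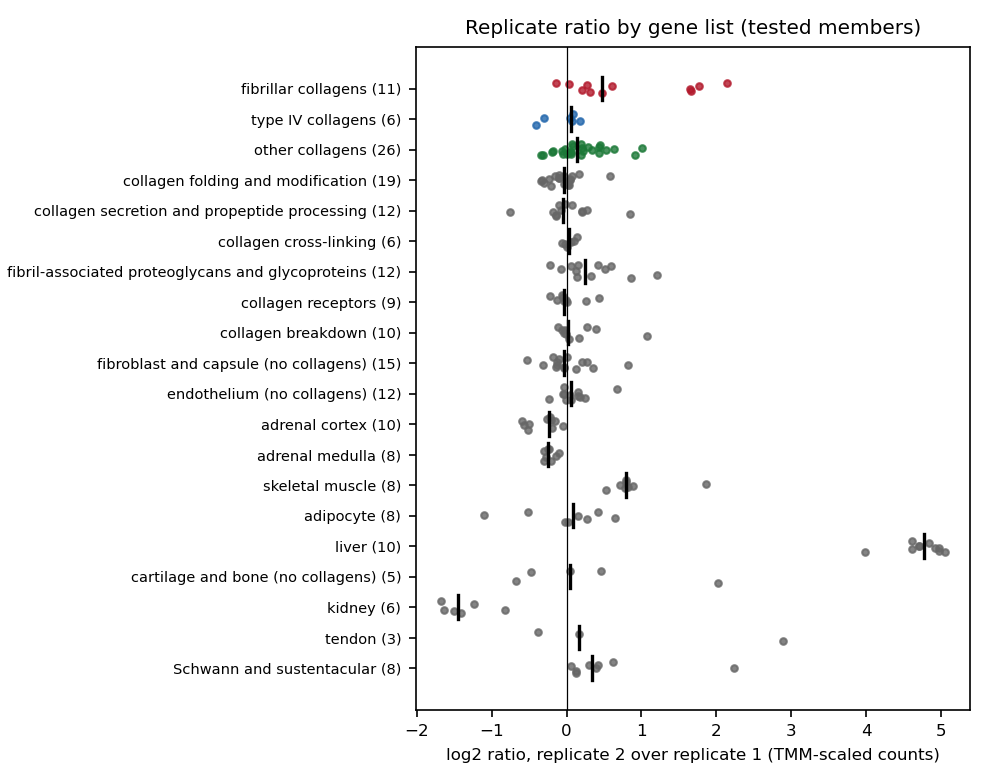
Each point is the log2 ratio of replicate 2 over replicate 1 (x axis) of 1 tested gene, by collagen class and by list (y axis, number tested in brackets), with a black bar at the median. The fibrillar collagens have a median of 0.47, the liver genes of 4.77, the skeletal muscle genes of 0.79 and the fibroblast and capsule genes of -0.04.

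Transcript tables added detail on which messages were counted. Of the 35 detected collagens, 31 had 1 main transcript in all 4 transcript tables, alignment-based and alignment-free, and 13 had a main transcript above 90% of the gene's TPM in both alignment-based tables. Col1a1-201, for example, took 97.9% of Col1a1 in replicate 2 and 98.7% in replicate 1. The 4 genes whose main transcript differed were Col16a1, Col26a1, Col25a1 and Col7a1. For Col25a1 the form Col25a1-204, annotated for nonsense-mediated decay, led only in the alignment-free table of replicate 1, at 47.0%. Col26a1-201 took 62.7% in replicate 2 and 29.1% in replicate 1 of the alignment-based TPM, where Col26a1-202 led in replicate 1. By alignment-based TPM, Col7a1-208, a retained-intron form of 525 bases, led Col7a1 at 54.1% in replicate 2 and 33.3% in replicate 1. Col16a1-207, a processed transcript of 833 bases, led Col16a1 at 27.7% in replicate 2 and 20.8% in replicate 1. Coding transcripts held 22.2% of alignment-based Col7a1 TPM in replicate 2 and 24.4% in replicate 1. In the alignment-free table of replicate 1, Col7a1-205, also a retained-intron form, led Col7a1 at 48.7%. TPM is divided by length, so these are not shares of reads.

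Col18a1 differed between the libraries in its make-up as well as its level. Its forms arise from separate starts: Col18a1-202, a transcript of 5063 bases, begins at the upstream start, and Col18a1-203, of 4791 bases, begins 52843 bases further into the gene. In the alignment-based tables Col18a1-202 had 19.9 TPM in replicate 2 against 13.4 in replicate 1, which was 1.48-fold. Col18a1-203 had 12.97 TPM in replicate 2 and 3.12 in replicate 1, which was 4.16-fold. By the alignment-free quantification these folds were 1.36 for Col18a1-202 and 2.99 for Col18a1-203. Col18a1-201, of 5595 bases, begins close to Col18a1-203, 52602 bases into the gene. In the alignment-based tables it had 2.39 TPM in replicate 2 and 0.910 in replicate 1. Together Col18a1-201 and Col18a1-203 took 43.6% of Col18a1 in replicate 2 and 22.9% in replicate 1. By the alignment-free quantification they took 37.7% in replicate 2 and 23.8% in replicate 1. There Col18a1-204, of 717 bases, which begins 77120 bases into the gene, took 26.3% in replicate 2 and 25.5% in replicate 1. In the alignment-based tables Col18a1-204 had 0 TPM in replicate 2 and 0.160 in replicate 1. Liver is known to use the downstream promoter of Col18a1, and the liver genes were 27.3-fold higher in replicate 2 at the median. Their part in this shift was not tested, and with no spread known for a transcript's share the shift has no test.

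Levels differed between the kinds of table. Alignment-free gene sums were higher than gene-table TPM by a median of 0.89 on the log2 scale over detected genes. Relative to that, Col22a1 stood 0.59 higher, Col4a1 0.51 higher and Col12a1 0.43 lower, the detected collagens furthest from it. For Col4a1 the full-length transcript Col4a1-201 took 77.2% in replicate 2 and 78.8% in replicate 1 of the alignment-based TPM, but 50.8% in replicate 2 and 50.5% in replicate 1 of the alignment-free TPM. There, Col4a1-204, a processed transcript of 416 bases listed at 0 in the alignment-based tables, took 20.3% in replicate 2 and 21.6% in replicate 1.

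Shared reads touched few members. Counts that were not whole numbers (tolerance 0.005) occurred in Col3a1, Col6a6 and Col6a5. Col3a1 and Gm47302, a gene annotated as a microRNA within it, summed to 50078 counts in replicate 2 and 43190 in replicate 1, whole numbers in both. Gm47302 held 1.45% of them in replicate 2 and 1.34% in replicate 1 and so reached 580 TPM in replicate 2 against 416 in replicate 1, above Col3a1 itself, being short. Likewise Col6a6 and Col6a5 summed to 1790 counts in replicate 2 and 1759 in replicate 1, so their division is an estimate. In the annotation 28 collagens overlapped another gene and 18 overlapped one on the opposite strand, but only 7 overlapped a gene at 1 TPM or more. The labels name a directional kit but not whether counts were made by strand, so the value of Col10a1, which lies within the reach of Nt5dc1 on the opposite strand, and that of Col18a1, beside Slc19a1, are uncertain to that extent.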

How the data were processed

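A directional kit was used on 300 ng of RNA, with ERCC spike-ins, per the labels. For each library the authors deposited a gene table, a transcript table made from an alignment and an alignment-free transcript table, on mm10 and GENCODE M21, as the descriptions with the deposited files say. Programs and versions are not given in the sources used. The deposited expected counts are estimates that can be fractional and were rounded before the count test. The deposited TPM values are divided by effective length and scaled to one total. Spike-ins held 1.06% of counts in each library and were left out, as were 26248 rows named by a number, with 2 counts in replicate 2 and 3 in replicate 1. A count of 0 allows up to 0.0990 CPM in replicate 2 and 0.0931 CPM in replicate 1 (3 counts).

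Levels are TPM per library, with mean ± SD (n = 2). Genes were kept with filterByExpr and library sizes set by TMM (edgeR 4.0.16, R 4.3.3), and the log2 ratio used a prior count of 0.5. The exact binomial test was tested on simulated data. Alignment-free values were summed per gene; 86 genes had none. Classes follow textbook types, with types XV and XVIII under other. Glycine codons were counted in the longest complete coding sequence per gene in place of protein sequence, which was not used here. No type XXI gene (Col21a1) was among the members that the naming rule gave. Promoter windows came from RefSeq (35 collagens matched).

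Named were collagens at 10 TPM or more, the 3 highest of each subclass, those called, the 3 furthest apart between table kinds, those with differing main transcripts, neighbours within 1 Mb and, of each list, up to the 3 highest and 3 called. Others were chosen after their values were seen. One list gene is not reported here. The members and the 17 gene lists were chosen with earlier results of these data known. Alternatives tried were DESeq2 1.42.0 size factors, spike-in or total library sizes, no filter, a prior count of 2, alignment-free values, other detection limits and each library alone. P-values measure only the difference between these libraries.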

Additional observations from a re-analysis of the deposited data

How the results depend on the processing

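No paired analysis was possible because the series has 1 group. Replicate ratios could not be recomputed without a library, since they need both. With 1 library alone, 31 to 35 collagens were detected, the collagen share ran from 0.811% to 1.02% of counts and 0.155% to 0.205% of TPM, and the class shares and chain ratios took the per-library values given above. Detected collagens numbered 38 at a limit of 0.5 TPM, 27 at 2 TPM and 38 in the alignment-free tables. The collagen share was 1.24% of counts and 0.466% of TPM among protein-coding genes, and 0.353% of TPM in the alignment-free tables. There the type IV share was 20.7% and that of the other chains 21.04%. In the gene tables these shares averaged 17.6% and 22.6%, and 20.5% and 19.7% with types XV and XVIII moved to the basement membrane class. Chain ratios (log2) in the alignment-free tables were 0.0397 for Col1a1 over Col1a2, 0.44 for Col3a1 over Col1a1, 1.11 for Col5a1 over Col5a2, 1.56 for Col4a1 over Col4a2 and -1.09 for Col4a3 over Col4a4. On expected counts without length scaling the same ratios were 0.52, -0.26, 1.38, 0.64 and -1.85, and only Col3a1 over Col1a1 changed direction. The cause of these shifts was not tested. Under the 6 alternatives for the replicate ratio, 4 to 5 collagens were called higher in replicate 2 and 0 higher in replicate 1, Col22a1 being lost with a prior count of 2. The median of all tested genes stayed within 0.04 of 0, and that of the collagens ran from 0.19 to 0.22. The TPM levels of most named collagens moved by more than the spread between replicates in the alignment-free tables. Where that spread is wide, a level rests on the library: without replicate 2, Col11a1 had 0.640 TPM, Col2a1 0.390 and Col24a1 0.150. Depth limits the 9 collagens under 1 TPM, which had at most 192 counts in replicate 2 and 248 in replicate 1.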
